A study of Mus musculus with 6 samples.

Results

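The cytosolic ribosomal protein genes encode the proteins of the large (Rpl, Rplp) and small (Rps) subunits of the ribosome, the particle that translates mRNA in the cytoplasm. Here they were followed in the uterus of ovariectomised mice after a single dose of estradiol. All probe sets were taken whose only annotated symbol starts with Rpl or Rps and a digit, or with Rplp, without the Rps6k kinases and without pseudogenes. That gave 48 of 12422 probe sets, for 34 genes, with 22 probe sets of 17 large subunit genes and 26 probe sets of 17 small subunit genes. The rule itself reads symbols only. Female C57BL/6 mice of 10 to 11 weeks had their ovaries removed and were killed 7 days later. The vehicle group was injected under the skin 24 h before sacrifice, and the others had 0.05 µg of estradiol per mouse, with sacrifice after 1, 3, 6, 12 or 24 h, so every group, vehicle included, lacked ovaries. Whole uteri were pooled and their RNA read on 1 Affymetrix U74Av2 array per group, with 10 mice stated and no number per pool. With 1 array per group nothing could be tested and no error between replicates exists: every difference below describes 2 pools, and only the 24 h comparison is matched to vehicle in time since injection.

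Each ribosome carries a single copy of nearly every ribosomal protein, and growing cells make these proteins in large and roughly matched amounts. Their mRNAs are among the most abundant in most cells. In mammals these mRNAs start with a C followed by a run of pyrimidines, the 5' terminal oligopyrimidine (TOP) tract, through which mTOR signalling sets how well they are translated, so ribosomal protein output can change without a change of mRNA. In the uterus, estradiol is known for starting growth and a wave of ribosome production.

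The start regions of some members are shown because the TOP tract is the sequence feature that the family is known to share. RefSeq start sites of the assembly GRCm38.p6 were found for 27 of the 34 genes, with 36 starts in all. A run that begins with C and goes on with at least 4 bases that are each C or T was searched on the strand that reads like the RNA, with its C between 10 bases before and 10 bases after the annotated start. Such a run was present at 18 of the 36 member starts (50.0%) and at 30.7% of all 32851 starts in the same table. Some of these runs, as at Rpl22, Rpl6 and Rpl10a, end before the annotated start and are not in the RNA as annotated. A run counted here thus need not be a TOP tract. Below, the 15 bases before the start and the 15 from it on are printed 5' to 3', with that run in capitals where the search found it.
Rps18, chr17:33955651-33955680, minus strand: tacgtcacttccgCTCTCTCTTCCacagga
Rps10, chr17:27635230-27635259, minus strand: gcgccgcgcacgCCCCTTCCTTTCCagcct
Rpl7a, chr2:26910792-26910821, plus strand: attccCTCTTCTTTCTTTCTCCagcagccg
Rpl13a, chr7:45128731-45128760, minus strand: gaaaccctgcgacaagaCCTCCTCCTTTCC
Rpl22, chr4:152324421-152324450, plus strand: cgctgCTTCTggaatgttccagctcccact
Rplp0, chr5:115559452-115559481, plus strand: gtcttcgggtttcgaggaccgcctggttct
Rpl7l1, chr17:46782642-46782671, minus strand: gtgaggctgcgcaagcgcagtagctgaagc
The run is 11 bases long at Rps18, 13 at Rps10, 17 at Rpl7a and 14 at Rpl13a, where its last base lies beyond the printed window. At Rpl7a the bases just before the capitals are also C, but they lie outside the search, so the full run is longer. It is 5 bases long at the start of Rpl22 that is printed, 1 of its 2 starts, and ends before that start. No such run lies in the window of Rplp0 or Rpl7l1, which says only that these letters are not there. As the values below show, Rps18 and Rps10, with long runs, had lower signal after estradiol at every time. Rpl7a, with the longest run of those shown, stayed close to vehicle by a probe set of uncertain identity. Rpl13a, also with a long run, was higher from 6 h on. Rps28, Rps3, Rps3a1, Rps4x and Rpl41, where the search found no run, also had lower signal at every time by their bright probe sets. A link between the run and the signal was not tested.

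The files give MAS5 signal, a value per probe set that summarises its short oligonucleotides, scaled here to a common trimmed mean. Signal below 142.8, the 40th percentile of all values, was treated as below the detection floor. Of the 48 member probe sets, 25 were at or above the floor on all 6 arrays, 6 on 1 to 5 of them and 17 on none. The last group held signals of 4.0 to 138, with the probe set of Rps27l at 13.9 in vehicle and the dimmer one of Rpl38 at 40.2, and included the only probe sets of Rpl32, Rpl35a, Rpl39, Rps13, Rps14, Rps15, Rps20 and Rps27l, and both of Rpl38, so 9 genes have no usable value. That says that these probe sets gave no signal, not that the genes are silent. Rps4x had a signal of 25735 in vehicle by its bright probe set and of 21.3 by another. Rpl7 and Rps24 also have a bright and a dim probe set each, with 15.0 in vehicle for the dim one of Rpl7, but their bright ones are annotated with the same source sequence, so either may read the other gene. The array labelled 3 h stood apart, with epithelial keratins of the uterus under the floor, so whether it holds uterus as labelled is in doubt, and it is described last. Between 58.8% and 61.7% of all probe sets reached the floor on each array. At the other end, 18 of the 48 were among the 100 brightest probe sets of the array, with vehicle signals of 11886 to 48062 and a median of 23008. Rpl41, which encodes a peptide of the large subunit, ranked 1st of all by mean signal, and the 18 brightest members cover 17 genes.

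**Figure D1:**
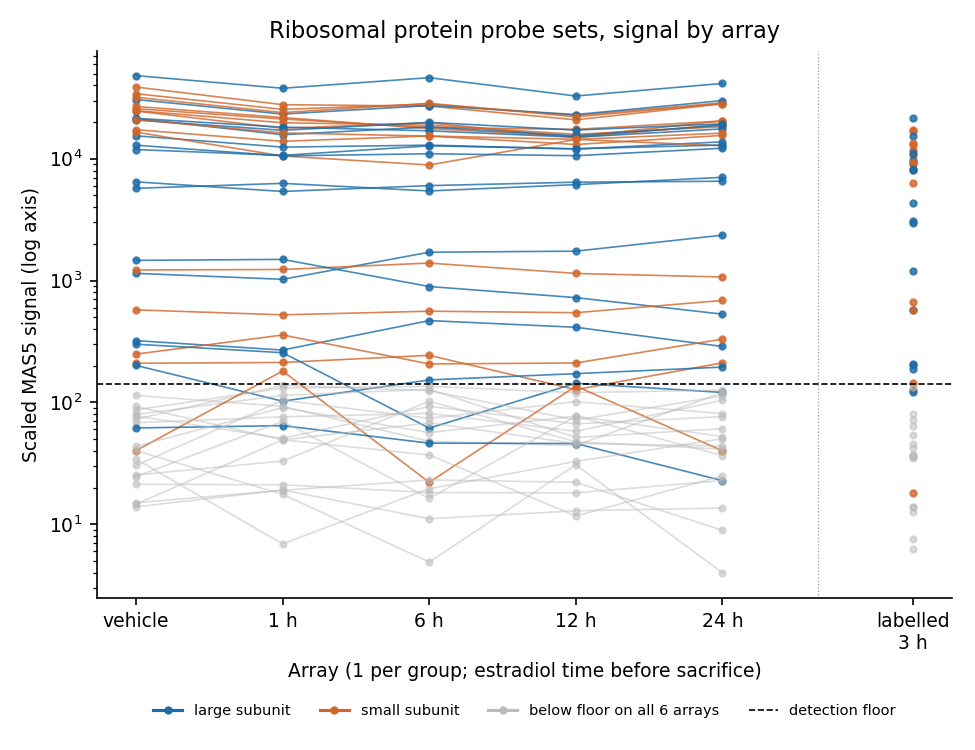
Scaled signal on a log axis for the 48 ribosomal protein probe sets on the vehicle array and the arrays 1, 6, 12 and 24 h after estradiol, joined by lines, with the array labelled 3 h set apart at the right. Over the joined arrays a bright band of 18 probe sets lies above 10000, apart from Rps19 with 8884 at 6 h. The band as a whole dips at 1 and 12 h. A few members lie between the floor of 142.8 (dashed) and 7032, and the grey probe sets stay under the floor on all 6 arrays.

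The bright members moved together and by little. Set against vehicle, their median signal was 79.1%, 83.1%, 69.6% and 85.2% at 1, 6, 12 and 24 h. All 18 were lower than vehicle at 1 h, and 17 of 18 at 6, 12 and 24 h, Rpl7a being the exception each time. These comparisons share the single vehicle array, so they are not independent of each other. Against the mean of vehicle and 1 h, 19, 23 and 16 of 30 measured members, bright or not, were lower at 6, 12 and 24 h. Vehicle was the highest of these 5 arrays for 17 of the 18 and 12 h the lowest for 13, while over all 6488 probe sets detected on the 5 arrays vehicle was the highest for 22.1% and 12 h the lowest for 19.1%. Among 41 other probe sets with a mean signal of at least 10000 and no ribosomal protein symbol, vehicle was the highest for 19 and 12 h the lowest for 19. The 48 member probe sets held 5.32% of the summed signal of the vehicle array, 4.37%, 4.47%, 3.95% and 4.52% at 1, 6, 12 and 24 h.

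Few members reached a 1.5-fold difference. At 1 h, 1 of 30 measured members was at least 1.5-fold lower and none higher, beside 3.79% lower and 5.43% higher among all 7977 measured probe sets. At 6 h, 4 of 29 were lower and none higher, beside 19.3% and 15.7% of 7935. At 12 h, 8 of 29 (27.6%) were lower and 1 higher, beside 18.1% and 16.5% of 7943. At 24 h, 2 of 29 were lower and 1 higher, beside 13.1% and 10.8% of 8018. So apart from 12 h in the lower direction, members passed 1.5-fold about as often as other probe sets or less often, and the shift lay in the median. Over the measured members, the median log2 ratio to vehicle was -0.29, -0.23, -0.41 and -0.17 at 1, 6, 12 and 24 h, where all measured probe sets had medians of 0.00, -0.05, -0.04 and -0.02.

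Other very bright probe sets also had medians below vehicle, by less at 24 h, and the size of the shift differed with the normalization. Of 61 probe sets that are no members and had a mean signal of at least 10000, 56, 45, 47 and 38 were lower than vehicle at 1, 6, 12 and 24 h, with median log2 ratios of -0.26, -0.25, -0.39 and -0.14 at 1, 6, 12 and 24 h. Of these 61, 20 carry several symbols with a ribosomal protein among them. At 12 h, 32.8% of the 61 were at least 1.5-fold lower, beside 27.6% of measured members and 6 of the 18 bright ones, and the shares were 0.0%, 8.2% and 6.56% at 1, 6 and 24 h. The remaining 41 had medians of -0.24, -0.18, -0.25 and -0.05, with 36, 27, 27 and 21 lower than vehicle. At 12 h, 11 of these 41 were at least 1.5-fold lower and 5 higher, and at 24 h 3 were lower and 6 higher, where 17 of 18 bright members were below vehicle but none by 1.5-fold. With quantile normalization, which gives every array the same distribution of signals, the members' median was -0.05, -0.08, -0.09 and -0.10 at 1, 6, 12 and 24 h, and 19 of 30, 17 of 30, 18 of 29 and 20 of 29 members were lower than vehicle, in place of 24 of 30, 24 of 29, 25 of 29 and 22 of 29. How much of the common dip belongs to the mRNAs and how much to the bright end of the signal range was not tested. The control probe sets for beta-actin, which are as bright, had log2 ratios of -0.25 to -0.36 at 1 h and -0.20 to -0.35 at 12 h, but of 0.16 to 0.30 at 6 h. Those for Gapdh, with signals of 7570 to 20000, had -0.18 to -0.28 at 1 h but 0.58 to 0.65 at 6 h, 0.62 to 0.64 at 12 h and 0.89 to 0.92 at 24 h, so bright controls did not share 1 course.

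**Figure D2:**
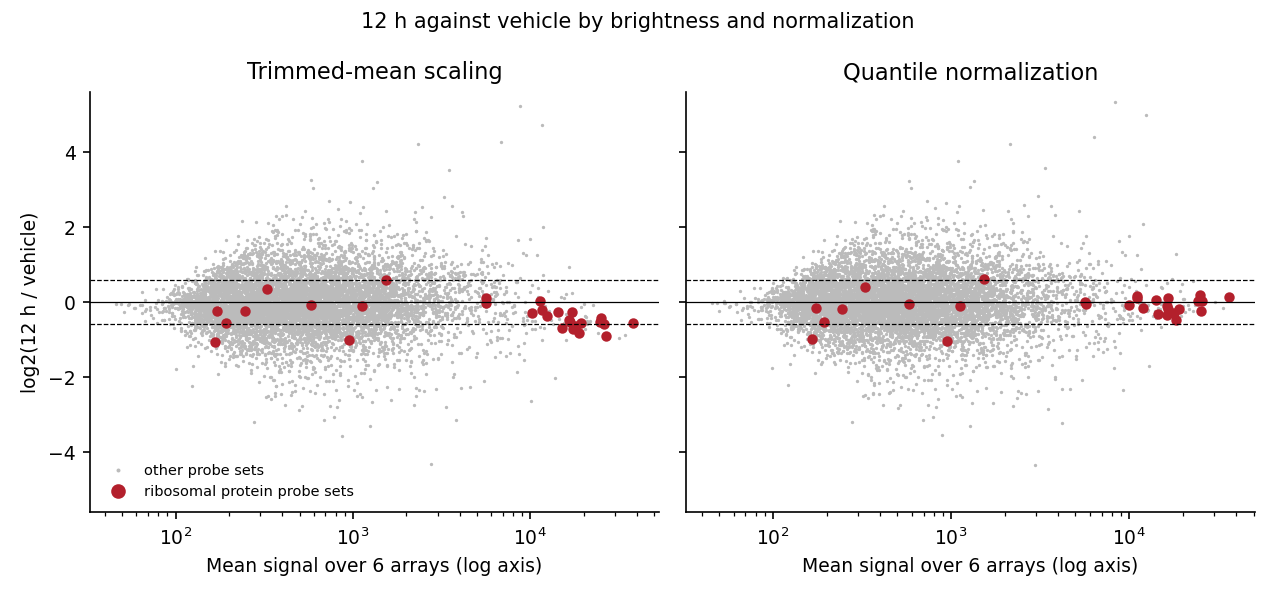
The log2 ratio of 12 h to vehicle against mean signal over the 6 arrays under the same normalization (log axis) for all measured probe sets (grey) and the ribosomal protein probe sets (red), with trimmed-mean scaling on the left and quantile normalization on the right; dashed lines mark 1.5-fold. On the left the red points above 10000, all but Rpl7a, lie below 0 with a median over all measured members of -0.41, and on the right they lie around 0 with a median of -0.09, while a few red points at middle signal, Rpl13a above and Rpl22 below, keep their place.

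In the large subunit, Rplp0, the base of the stalk that recruits translation factors, had a signal of 30584 in vehicle and 23232, 27300, 23019 and 29973 at 1, 6, 12 and 24 h. It was thus 1.32-fold lower at 1 h, 1.33-fold lower at 12 h and at the vehicle level by 24 h. Rpl41 was also lowest at 1 and 12 h but was still at 86.3% of vehicle at 24 h, with 48062 in vehicle and 37829, 46218, 32678 and 41459 at 1, 6, 12 and 24 h. Rpl19, a protein of the large subunit that reaches into a bridge to the small one, had 21351 in vehicle and 15742, 18200, 15418 and 18808 at 1, 6, 12 and 24 h by its bright probe set. Its second probe set had 300.4 in vehicle and 61.5 at 6 h, under the floor and at least 2.10-fold lower, so both probe sets were lower than vehicle but by unlike amounts. Rpl8, which lies close to the peptidyl transferase centre, kept a narrow range of 17101 to 20754 over these 5 arrays. Rpl6 ranged from 12002 at 12 h to 15408 in vehicle, and Rpl7 from 15002 at 12 h to 21426 in vehicle. Rpl10a was read by 2 probe sets that stayed within 1.22-fold and 1.21-fold over the 5 arrays, with vehicle signals of 12906 and 6456. Rpl7a had 11886 in vehicle and 10644, 12762, 12059 and 12954 at 1, 6, 12 and 24 h, the flat exception named above. The annotation gives this probe set the same source sequence as probe sets of Surf1 and Surf2, so the transcript it reads is uncertain too. Rpl37a, a zinc-binding protein of the large subunit, was 5712 in vehicle and 6276, 5437, 6127 and 7032 at 1, 6, 12 and 24 h, which is 1.23-fold higher at 24 h.

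Relative to vehicle, the small subunit members lay lower than the large subunit members. Among bright probe sets, the median over 10 of the small subunit was 76.3%, 74.6%, 65.2% and 77.5% of vehicle at 1, 6, 12 and 24 h, and that over 8 of the large subunit 81.2%, 87.2%, 76.6% and 91.2%. All 6 bright members at least 1.5-fold lower at 12 h carry small subunit symbols, 2 of them Rps28 and 1 the Rps24 probe set whose identity is uncertain, as described below. With quantile normalization the medians were 96.9%, 90.0%, 86.7% and 84.5% for the small subunit and 99.0%, 103%, 101% and 97.6% for the large, so the order held while the shared dip shrank. The typical mean signal was 18488 for the bright small subunit members and 16635 for the large. The ranges of the subunits overlapped at each time, and the difference was not tested.

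Rps28, a small protein near the mRNA exit channel, was the lowest of the bright members at 12 h. Its brightest probe set gave 38719 in vehicle and 27758, 27000, 20849 and 28209 at 1, 6, 12 and 24 h, and another gave 26828, 21762, 17658, 15217 and 20430. These are 1.86-fold and 1.76-fold lower at 12 h, so both probe sets point the same way. With quantile normalization their log2 ratios at 12 h were -0.23 and -0.48 in place of -0.89 and -0.82. Another, dim probe set of Rps28 stood at 209.5 in vehicle and 127.2 at 12 h, under the floor. Rps3, which lines the mRNA entry channel, had 24591 in vehicle and 17770, 19706, 14911 and 19106 at 1, 6, 12 and 24 h, 1.65-fold lower at 12 h. Rps7 and Rps3a1 were 1.60-fold and 1.56-fold lower at 12 h and both 1.35-fold lower at 24 h. Rps4x, whose gene lies on the X chromosome, went from 25735 in vehicle to 17401 at 12 h and 20398 at 24 h by its bright probe set, and its other 4 probe sets lay below the floor apart from 1 of them at 1 h. Rps18 and Rps10, proteins of the head of the small subunit, were lower by less, with 31890 in vehicle and 22078 at 12 h for Rps18, and 17302 and 14407 for Rps10. A bright probe set paired with Rps24 had 34134 in vehicle and 22666 at 12 h, but the annotation gives it the same source sequence as a probe set of Rpl7, so which mRNA it reads is uncertain.

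A few members left the common course, while 21 of the 25 members detected on all 6 arrays stayed within 1.5-fold of the family's median at 1, 6, 12 and 24 h. The 4 were Rpl22, Rpl13a, Rpl7l1 and Rps19. Rpl22 is an RNA-binding protein of the large subunit that mice can lack, known for its need in T cell development. By its brighter probe set it had a signal of 1464 in vehicle and 1492, 893.4, 724.3 and 530.1 at 1, 6, 12 and 24 h. It was level with vehicle at 1 h, then 1.64-fold, 2.02-fold and 2.76-fold lower, the only member with its lowest signal at 24 h among those 4. Its second probe set was dim, with 201.2 in vehicle and 102.3, 152.9, 172.2 and 194.9 at 1, 6, 12 and 24 h, and did not show this course. Over the settings run, the log2 ratio of the brighter probe set at 24 h lay between -1.48 and -1.45. Most settings cannot alter the ratio of 1 probe set above the floor, because only the scaling and the reference enter it. So this range, and those of Rpl13a and Rps19 below, say little about precision.

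Rpl13a, a large subunit protein also known for binding certain mRNAs outside the ribosome, went the other way. Its single probe set had 1146 in vehicle and 1024, 1708, 1743 and 2358 at 1, 6, 12 and 24 h. The 3 late arrays were all above the 2 early ones, at 1.49-fold, 1.52-fold and 2.06-fold higher than vehicle. At 12 h and again at 24 h no other member was 1.5-fold higher, and its log2 ratio at 24 h lay between 1.04 and 1.12 over the settings. Among all measured probe sets, 3.49% were 2-fold higher or more at 24 h and 3.75% 2-fold lower or more, so a difference of the size of Rpl13a is also found elsewhere. Rpl22, at 2.76-fold lower, is well past 2-fold, and the share of probe sets that far down was not counted.

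Rpl7l1, a paralog of Rpl7 in the nucleolus that works in assembly of the large subunit, had 321.3 in vehicle and 269.0, 469.1, 413.7 and 287.7 at 1, 6, 12 and 24 h. It was 1.46-fold higher at 6 h and 1.29-fold at 12 h and back near vehicle at 24 h. Rps19, a small subunit protein often mutated in Diamond-Blackfan anaemia, had 16507 in vehicle and 10521, 8884, 14383 and 12776 at 1, 6, 12 and 24 h. It was 1.57-fold lower at 1 h and 1.86-fold lower at 6 h, and the only bright member that was higher at 12 h than at 6 h, where the median log2 difference of the 18 was -0.22. Its log2 ratio at 6 h was between -0.89 and -0.57 over the settings run.

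**Figure D3:**
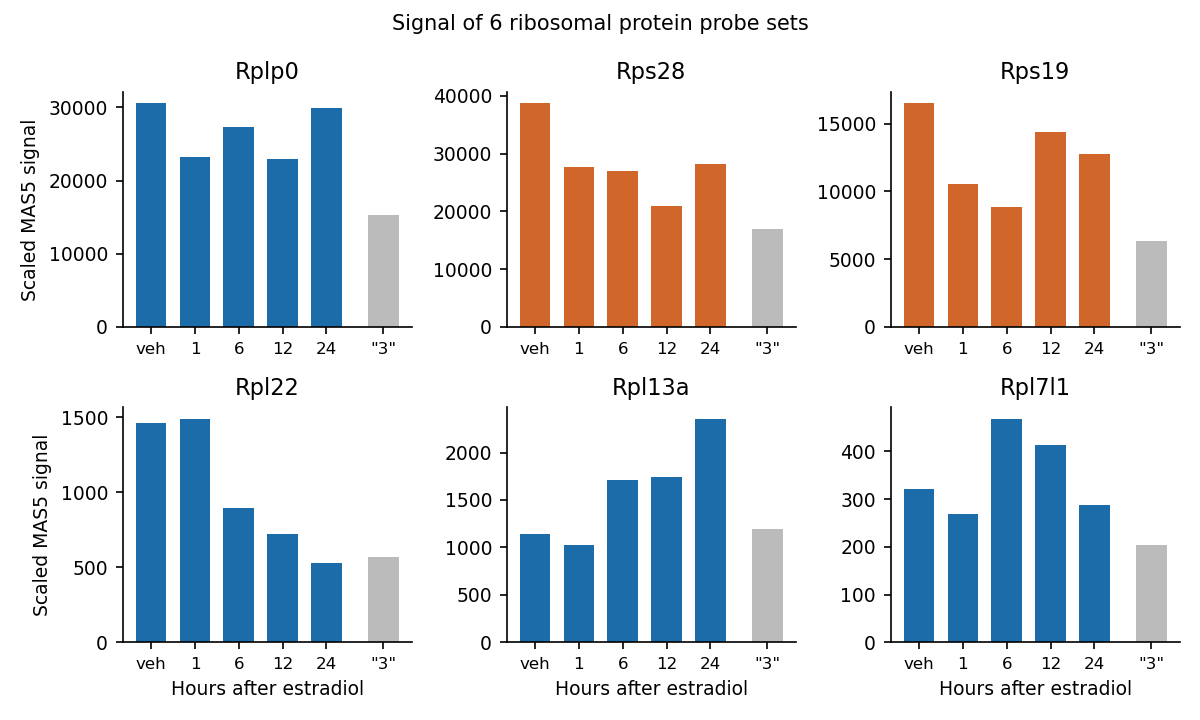
Scaled signal (linear axes from 0) of 1 probe set each for Rplp0, Rps28, Rps19, Rpl22, Rpl13a and Rpl7l1 on the vehicle array (veh) and 1, 6, 12 and 24 h after estradiol, with the array labelled 3 h in grey; blue marks the large and orange the small subunit. Rplp0 dips at 1 and 12 h, Rps28 is lowest at 12 h with 20849, Rps19 is lowest at 6 h among the coloured bars, Rpl22 steps down from 1492 at 1 h to 530.1 at 24 h and Rpl13a steps up from 1024 to 2358.

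The remaining members were dim. Rps27 ranged from 1069 at 24 h to 1391 at 6 h. Rps29, a zinc-finger protein of the small subunit, had 249.0 in vehicle and 357.5, 206.9, 210.6 and 330.9 at 1, 6, 12 and 24 h, with its other probe set under the floor throughout. At 1.44-fold it was the member with the highest ratio at 1 h. Rps4l, a paralog of Rps4x, kept between 523.2 and 686.8 over these 5 arrays by 1 probe set and lay below the floor by the other. Rpl39l, a paralog of Rpl39, was below the floor on these 5 arrays, and Rps27l, a paralog of Rps27, on all 6.

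With the scaling used here, most members took a small step down from 6 to 12 h and were higher again at 24 h. Their median log2 ratio to vehicle was -0.23, -0.41 and -0.17 at 6, 12 and 24 h. In that first step 17 of the 18 bright members were lower, beside 48.2% of all measured probe sets. Of the 61 bright probe sets that are no members, 46 were lower. From 6 to 12 h, 22 of 29 measured members were lower, with a median log2 difference of -0.18, 1 at least 1.5-fold higher and 1 lower, beside 7.79% and 6.34% of all measured probe sets. From 12 to 24 h, 5 of 29 were lower and the median difference was 0.23, with 1 at least 1.5-fold higher and none lower, beside 11.3% and 10.8%. The 61 bright probe sets that are no members had medians of -0.18 and 0.28 for the 2 steps. They include the 20 with several symbols and a ribosomal protein among them. Of these 20, 19 were lower from 6 to 12 h, and their medians were -0.225 and 0.31. The likeness to the members thus rests in part on ribosomal protein probe sets, and the others were not taken apart for these steps. These differences reuse the arrays set against vehicle above. With quantile normalization the members' median ratios to vehicle were -0.08, -0.09 and -0.10 at 6, 12 and 24 h. The step down and the return are thus not seen in the medians under that setting.

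Probe sets paired with several symbols of which at least 1 follows the symbol rule were not named but can be counted. There were 39, with 20 at a mean signal of 10000 or more. All 20 were lower than vehicle at 1 h and at 12 h, with medians of -0.32 and -0.58, and the medians were -0.35 at 6 h and -0.24 at 24 h. They repeat the course of the named bright members in the same pools. Many ribosomal protein genes have processed pseudogenes of near-identical sequence, and for 24 of the 34 member genes the RefSeq table lists at least 1 pseudogene named after it, so a member's signal may include such copies. Rpsa, a small subunit protein outside the symbol rule, had 6490 in vehicle and 5320, 5870, 6830 and 7950 at 1, 6, 12 and 24 h, and Fau reached the floor only at 24 h.

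The machinery that builds ribosomes stood apart from the ribosomal proteins. Of 61 ribosome biogenesis genes measured at 6 h, 43 were at least 1.5-fold higher and 1 lower, with a median log2 ratio of 0.95, beside 15.7% and 19.3% of all probe sets. At 12 h it was 36 higher and none lower of 61 (median 0.66), and at 24 h 4 of 57 (0.05). The measured genes include Tbc1d1, which was not on the planned list and was matched through a synonym. Its log2 ratios of -0.21 at 6 h and -0.51 at 12 h did not reach 1.5-fold. At 1 h the median was -0.06. Ddx21, a nucleolar helicase, had 476 in vehicle and 2740 at 6 h, and Nop56, a core protein of box C/D particles that modify ribosomal RNA, 556 and 3060. Of 19 translation factors measured, which are initiation factors and the release factors Etf1 and Gspt1, 15 were higher and none lower at 6 h (0.88), both release factors among them. At 12 h 13 were higher and none lower (0.76), beside 16.5% and 18.1% of all probe sets, and at 24 h 5 were higher and 2 lower (0.15), beside 10.8% and 13.1%. Among them Eif6, which keeps the subunits apart until the large one is mature, had 611 in vehicle, 1550 at 6 h, 1620 at 12 h and 1120 at 24 h.

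Mitochondrial ribosomal proteins (Mrpl, Mrps), which form the separate ribosome of mitochondria, had medians of -0.06, 0.40, 0.53 and 0.29 at 1, 6, 12 and 24 h. Of 57 measured at 12 h, 24 were at least 1.5-fold higher and 1 lower, beside 16.5% and 18.1% of all probe sets. Mrps28 had 202 in vehicle and 594 at 6 h, and its cytosolic namesake Rps28, a different protein, was lower at that time. The list of elongation factors and other proteins of TOP mRNAs had medians of -0.15, 0.16, 0.09 and 0.12 at 1, 6, 12 and 24 h. Its 4 genes with a mean signal over 10000, named after their values were seen, did not share 1 course. Eef1a1, which brings aminoacyl-tRNA to the ribosome, had 49300 in vehicle and 36000, 37400, 27000 and 36300 at 1, 6, 12 and 24 h. Tpt1, a growth-related protein with a TOP mRNA, had 46100 in vehicle and 35700, 34600, 23600 and 31000 after estradiol. Eef2, the translocation factor, had 13500 in vehicle and 11700, 11300, 8290 and 10200. Ybx1, an mRNA-binding protein, went the other way after 1 h, with 14700 in vehicle and 12400, 15400, 16200 and 18700. The dimmer Eif3a, an initiation factor subunit, had 715 in vehicle and 1700 at 6 h.

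**Figure D4:**
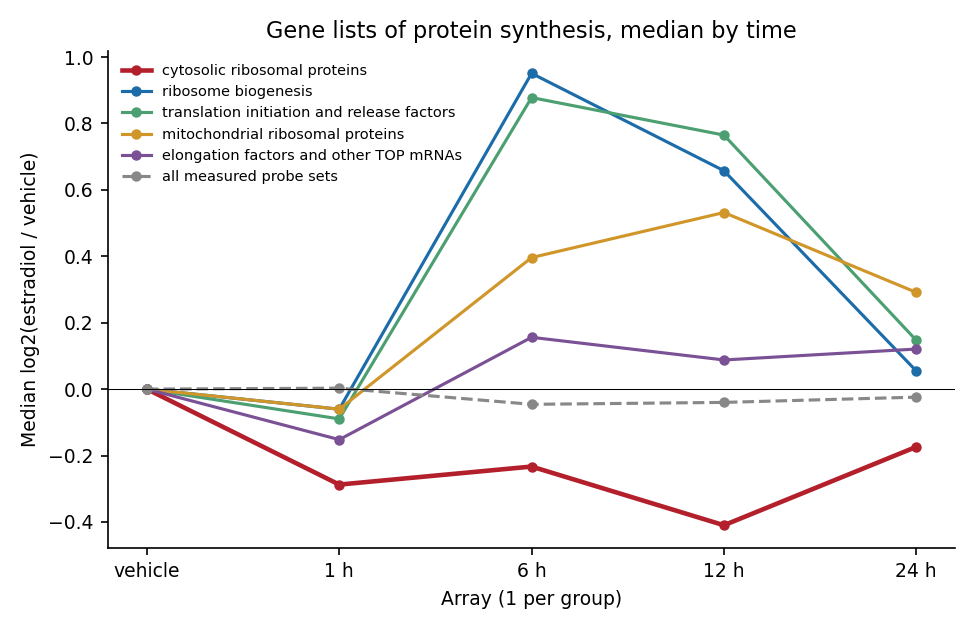
Median log2 ratio to vehicle over the measured genes or probe sets of each list at 1, 6, 12 and 24 h (vehicle is 0 by definition). Medians reach 0.95 at 6 h for ribosome biogenesis, 0.88 at 6 h for initiation and release factors and 0.53 at 12 h for mitochondrial ribosomal proteins. These lists lie above the dashed line of all measured probe sets at 6, 12 and 24 h. At 1 h they lie a little below it, at -0.06, -0.09 and -0.06. The cytosolic ribosomal proteins lie below the dashed line at each time, with -0.41 at 12 h. This last distance shrinks with quantile normalization.

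Genes of the mTOR and S6 kinase pathway, which acts on TOP mRNAs and on the ribosome itself, had medians of -0.01, 0.07, -0.07 and 0.14 at 1, 6, 12 and 24 h over 13 measured genes. At 6 h, 3 were at least 1.5-fold higher and 3 lower, close to the 15.7% and 19.3% of all probe sets. Larp1, which binds TOP tracts, had 1510 in vehicle and 1560, 3200, 2110 and 1660 at 1, 6, 12 and 24 h. Akt1 had 1320 in vehicle and 2490 at 6 h, and its paralog Akt2, named after its values were seen, 1150 and 755. Tsc1, an inhibitor of mTOR, had 606 in vehicle, 370 at 6 h and 312 at 24 h. The S6 kinase gene Rps6kb2 had 435 in vehicle, 512 at 6 h, 306 at 12 h and 593 at 24 h.

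Whole uteri hold several cell types, and in such samples fewer cells of a type and less RNA per cell cannot be told apart. The markers of uterine tissue were present in vehicle, with summed signals of 53513 for 10 smooth muscle markers, 81205 for 18 stromal and 24594 for 18 epithelial markers. At 12 h, 8 of 9 measured adipocyte markers were at least 1.5-fold lower and none higher, with a summed signal of 5702 against 14625 in vehicle, and at 24 h of 5200. Stromal markers were lower at 6 h in 9 of 17 and higher in 1, with a sum of 62346, and leukocyte markers lower in 4 of 11 and higher in none, with 6933 against 9566, beside 19.3% lower and 15.7% higher of all probe sets. Endothelial markers were lower in 5 of 10 at 12 h and higher in 1, with 5634 against 7819. At 24 h other sums were above vehicle, with 34500 for epithelial markers (5 of 16 higher, 2 lower), 71938 for smooth muscle (3 of 10 higher, 1 lower) and 110786 for stroma (4 of 18 higher, 6 lower), beside 10.8% higher and 13.1% lower of all probe sets. At 1 h, 1 of 16 epithelial markers, no measured marker of the other 6 types and 1 of 18 bright members was at 1.5-fold. The median log2 ratios there were -0.22 for smooth muscle, -0.14 for epithelium and for endothelium, -0.11 for stroma and -0.05 for leukocytes. They were 0.06 for adipocytes, 0.33 for blood (2 measured) and -0.34 for the bright members. Smooth muscle markers summed to 42985 at 1 h against 53513 in vehicle. The part of these shifts in the members' values was not tested. Of 10 reference genes, 3 were higher and 2 lower at 6 h, so that list offers no flat standard.

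The array labelled 3 h is given apart, because it differed from the other 5 over all probe sets (Spearman's rho of 0.843 to 0.857, against 0.929 to 0.968 among those 5). On it, blood markers summed to 33692 against 2668 in vehicle and leukocyte markers to 34046 against 9566, while smooth muscle markers summed to 15427 against 53513. Of 16 epithelial markers, 12 were at least 1.5-fold lower and 3 higher, with a median of -1.68 although their sum was 32509 against 24594. The keratins Krt8, Krt18 and Krt19 had 2190, 2280 and 2200 in vehicle and 107, 64.9 and 5.2 here, all under the floor. All 18 bright members were lower than vehicle, at a median of 45.4%, and 24 of 30 measured members were at least 1.5-fold lower and none higher, beside 27.3% and 20.2% of 8201 probe sets. Among bright probe sets, 17 of 18 members were 1.5-fold lower, 23 of the 41 without a ribosomal protein symbol, and 70.5% of all 61 that are no members. The median log2 ratio was -0.998 over members and -0.15 over all probe sets. Rps3 was lowest of the bright members, 3.07-fold below vehicle at 8000, followed by Rpl10a, 2.97-fold lower at 4344, and Rpl7a again moved least, 1.48-fold lower. Rpl13a was 1192 against 1146 in vehicle, and Rpl22 570.5 against 1464. With markers that go against its label, what this array shows of the members cannot be told apart from a difference in tissue.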

How the data were processed

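Whole uteri pooled per group were profiled on 1 Affymetrix U74Av2 array each, from 20 µg of total RNA, per the labels' protocols. The authors deposited linear signal intensity values made with MAS5, per the submitters' processing notes, whose version and settings are not given in the sources used here. The 66 control probe sets among 12488 were left out. The array annotation pairs 10833 of the rest with 1 symbol, 396 with several and 1193 with none. All 48 member probe sets matched a RefSeq gene identifier (GRCm38.p6).

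Arrays were brought to a common mean, trimmed by 2% at each end, values under the 40th percentile (142.8) were raised to it, and log2 was taken. A ratio was kept where at least 1 of the 2 arrays reached the floor. A difference of 1.5-fold served to count. With 1 array per group no test was possible, and precision is limited by there being 6 arrays. Other lists used the brightest probe set of a gene. Named members are the 4 highest and 4 lowest at each time, those with several probe sets, paralogs, Rplp genes, the brightest and dimmest, and those past 2-fold. Members, lists and settings were chosen with earlier results of these data known. Python 3.11.15, pandas 2.3.3 and NumPy 2.4.6 were used, and the ratio step was tested on simulated data.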

Additional observations from a re-analysis of the deposited data

How the results depend on the processing

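The members' median log2 ratio to vehicle stayed below 0 at each time under all settings run, but 10 of 44 alternative medians differed from the reported ones by over 1.5 times, and most of the shift was gone in several. With quantile normalization it was -0.0454, -0.0815, -0.0936 and -0.1046 at 1, 6, 12 and 24 h. For the array labelled 3 h it was -0.5896. With arrays scaled to the same median it was -0.1363 at 6 h, and with the floor at the 20th percentile -0.0984 at 24 h. Against the mean of vehicle and 1 h it was -0.0861, -0.2307 and -0.0208 at 6, 12 and 24 h. Counts past 1.5-fold rest on few members and moved more. Higher counts at 6 h were 2 of 29 with arrays scaled to the same median and 1 of 30 with quantile normalization. With the mean of vehicle and 1 h as reference 2 of 30 were higher at 6 h. The reported count was 0 of 29. Under these alternative settings 14.6% to 19.0% of all measured probe sets were higher at 6 h. Lower counts with quantile normalization were 0 at 1 h and 2 at 12 h, against 1 and 8, beside 4.46% and 16.9% of all probe sets. With the floor at the 20th percentile, which admits dimmer probe sets, 6 of 43 measured members were higher and 4 lower at 1 h. The shares over all measured probe sets were 11.7% and 7.3% there. At 6 h 5 of 42 were higher, beside 18.1%, and at 12 h 5 of 43, beside 18.6%. At 24 h 4 of 44 were higher and 4 lower, beside 15.9% and 15.8%. On the array labelled 3 h 2 of 42 were higher with this floor, beside 21.1%. With the floor at the 60th percentile 1 was lower at 24 h. With 1 probe set per gene 2 of 24 were lower at 6 h and 1 of 24 at 24 h, beside 19.3% and 13.1%. With the mean of vehicle and 1 h as reference 2 were lower at 6 h and 4 at 12 h. Bright members alone, and leaving out the Rps24 and Rpl7 probe sets that share a source sequence, were settings chosen after seeing the data. No setting could leave out a replicate. No paired analysis was possible because each group has 1 array.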

Other observations

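The array also carries control probe sets for 18S ribosomal RNA, the RNA of the small subunit. The 3' one had a signal of 315 in vehicle and of 194, 339, 237 and 276 at 1, 6, 12 and 24 h. On the array labelled 3 h it was 79.5. The other 2 stayed under the floor, at 53.2 or less. The labelling of total RNA by way of poly(A) tails does not aim at ribosomal RNA, so these values do not measure its amount. Rps4x has 1 dim probe set that reached the floor at 1 h only, at 180.9 against 40.2 in vehicle, while its bright probe set was lower at that time.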
